A study of Mus musculus with 135 samples.

Results

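Ribosomal protein genes were taken as the protein-coding autosomal genes of the GENCODE M21 annotation whose symbol starts with Rpl or Rps followed by a digit and whose product is a protein of the cytosolic ribosome. Ribosomal S6 kinases, l-type paralogues and pseudogene names were left out. This gave 69 genes of 20807 protein-coding autosomal genes, 40 of the large and 29 of the small ribosomal subunit. A member peak was any peak that came within 1 kb of one of their transcription start sites (TSS). There were 62 member peaks of 67114 peaks in germ cells, 50 of 67192 in embryonic stem cells, 63 of 29138 in hepatocytes and 64 of 23809 in cardiomyocytes.

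The series measured trimethylation of lysine 4 of histone H3 (H3K4me3) by chromatin immunoprecipitation of MNase-digested chromatin and sequencing, in order to map loci that control the mark in a mouse reference population. The founders were the inbred strains C57BL/6J (B6) and DBA/2J (D2), and the BXD strains are inbred mosaics of both founder genomes. No gene was mutated and no agent was given in any group. Germ cells were a crude preparation from males at 14 days post-partum, from B6 (3 libraries), D2 (3), the F1 hybrid of B6 and D2 (4) and 61 BXD strains (69 libraries), so other testis cells can be present. Hepatocytes and cardiomyocytes came from females aged 8 weeks, with 3 libraries for each of the strains B6, D2, BXD75 and BXD87. Stem cell lines had been derived from embryos at day 3.5, with 3 lines each of B6 (139, 146 and 49) and D2 (173, 203 and 216) and 5 lines each of BXD75 and BXD87. Stem cell lines are single derivations, and libraries of the same line were summed. The labels do not say whether the other replicates are separate animals, so the p-values measure the spread between these libraries, which may in part be technical.

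Depth in megareads (M) in peaks per library ran from 1.87 to 31.4 M in germ cells, 13.8 to 20.2 M in stem cells, 8.95 to 25.2 M in hepatocytes and 2.62 to 12.8 M in cardiomyocytes, where the 3 D2 libraries were the shallowest (2.62 to 4.10 M). Values below are CPM, counts scaled to the TMM-adjusted total of a library, and a level is CPM per kb of peak. Of 10 markers of each labelled cell type, 10 had a peak within 1 kb of their TSS in germ cells, 7 in stem cells (not Nanog, Pou5f1 or Tdgf1), 9 in hepatocytes (not Serpina1a) and 6 in cardiomyocytes (not Actc1, Myh6, Nppa or Tnnt2). Markers of Sertoli and Leydig cells had a peak in germ cells in 6 of 8 cases, and markers of other heart cells had one in cardiomyocytes in 6 of 8. A peak was also present in stem cells at 8 of 8 markers of other cell types, and in hepatocytes at 3 of 8 markers of other liver cells. Fewer cells of a type and less signal per cell cannot be told apart in these bulk samples. The germ cell libraries were made with another kit than the rest, and the peak sets of the cell types differ, so levels are set side by side only as ranks within a cell type.

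Ribosomal proteins assemble with ribosomal RNA into the small subunit, which decodes the messenger, and the large subunit, which joins amino acids. Their genes are transcribed in nearly all cells, and their coordinated output is needed for equal amounts of each protein. Mammalian ribosomal protein promoters usually start within a stretch of C and T bases, which also places the messenger under translational control by nutrient signalling. H3K4me3 is laid down around the start sites of active genes with CpG-rich promoters.

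The sequences of 10 promoters are shown because the founder differences and the highest levels described further on lie there. Each covers the 100 bases before and the first 20 bases of the gene, 5′ to 3′ on the gene's strand, from the RefSeq promoter table of GRCm38.p6, with its coordinates in that build. Capitals mark runs of at least 8 C or T bases and the ETS family word CCGGAAG or its reverse complement CTTCCGG.
Rpl23 (chr11:97782420-97782539, minus strand): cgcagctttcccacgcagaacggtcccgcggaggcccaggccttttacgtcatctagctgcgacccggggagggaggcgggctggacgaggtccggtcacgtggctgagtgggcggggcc
Rpl7a (chr2:26910707-26910826, plus strand): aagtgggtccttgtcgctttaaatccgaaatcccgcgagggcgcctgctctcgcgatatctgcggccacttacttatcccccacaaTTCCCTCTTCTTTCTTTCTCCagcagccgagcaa
Rpl11 (chr4:136053374-136053493, minus strand): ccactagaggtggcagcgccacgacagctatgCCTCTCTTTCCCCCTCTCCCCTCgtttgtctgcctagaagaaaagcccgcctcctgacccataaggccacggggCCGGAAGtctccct
Rpl6 (chr5:121204401-121204520, plus strand): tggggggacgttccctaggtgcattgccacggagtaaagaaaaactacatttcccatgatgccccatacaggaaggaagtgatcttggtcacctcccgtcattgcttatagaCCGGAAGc
Rps26 (chr10:128626487-128626606, minus strand): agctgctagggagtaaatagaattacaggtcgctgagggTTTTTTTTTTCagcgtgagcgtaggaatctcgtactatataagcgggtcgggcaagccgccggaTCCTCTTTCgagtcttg
Rps2 (chr17:24719963-24720082, plus strand): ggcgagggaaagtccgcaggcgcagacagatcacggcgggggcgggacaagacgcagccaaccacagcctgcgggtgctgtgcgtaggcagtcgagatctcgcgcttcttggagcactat
Rps18 (chr17:33955646-33955765, minus strand): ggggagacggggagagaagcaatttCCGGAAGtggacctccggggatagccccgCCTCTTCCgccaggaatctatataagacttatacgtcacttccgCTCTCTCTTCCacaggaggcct
Rps15a (chr7:118116128-118116247, minus strand): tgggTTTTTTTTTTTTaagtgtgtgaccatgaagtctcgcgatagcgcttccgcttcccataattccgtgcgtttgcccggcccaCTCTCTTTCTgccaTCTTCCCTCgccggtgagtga
Rpl4 (chr9:64173287-64173406, plus strand): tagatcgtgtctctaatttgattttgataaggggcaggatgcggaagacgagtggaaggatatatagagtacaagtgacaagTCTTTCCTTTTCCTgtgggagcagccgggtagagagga
Rps25 (chr9:44407614-44407733, plus strand): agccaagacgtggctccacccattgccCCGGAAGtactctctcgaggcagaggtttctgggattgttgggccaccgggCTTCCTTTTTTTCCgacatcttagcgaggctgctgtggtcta

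Of the 69 members 50 had an entry in the promoter table, whose windows are 300 bases long. A run of at least 8 C or T bases within 20 bases of the start, on the gene's strand, was in 48% of the member windows and in 15.9% of the 27025 windows of all genes (15.5% of 17491 protein-coding genes). The runs of Rpl4, Rpl7a, Rps18 and Rps25 in the lines above are of this kind, while the shown stretch of Rpl23 has no such run. The word CCGGAAG, searched on both strands, was in 40% of member windows, 9.12% of all windows and 11.9% of those of protein-coding genes. In the same order the GC box GGGCGG was in 56%, 35.9% and 46.3%, and the YY1 word AAGATGG in 16%, 6.48% and 6.37%. The word CTTTCC, which can overlap a C or T run, was in 46%, 26.3% and 25.7%. The TATA box word TATAAA was in 4%, 14.2% and 13.3%, and the NRF1 word GCATGCGC in 4%, 2.80% and 3.60%. Member windows had a median GC content of 57.7% and a CpG observed-to-expected ratio of 0.906, compared with 52.7% and 0.389 in all windows and 56.3% and 0.576 in protein-coding genes. Members without an entry included Rpl17, Rpl21, Rpl23a, Rpl29, Rpl3, Rpl30, Rpl32, Rpl36, Rpl7, Rpl8, Rps14, Rps20, Rps27a and Rps29.

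Most ribosomal protein genes had a listed promoter peak in every cell type. A peak was present in all 4 cell types for 41 members, in 3 for 22, in 2 for 3 and in 1 for 3. By subunit, peaks were found at 36 of 40 large and 25 of 29 small subunit genes in germ cells, 29 and 21 in stem cells, 36 and 27 in hepatocytes and 37 and 28 in cardiomyocytes. The number of members without a listed peak was highest in stem cells, at 19, among them Rpl13, Rpl14, Rpl15, Rpl19, Rpl23a, Rpl24, Rpl35a, Rpl38, Rpl6, Rpl7a, Rps10, Rps13, Rps2, Rps23, Rps26, Rps29 and Rps9. In germ cells the 8 without were Rpl24, Rpl36, Rpl6, Rpl8, Rps10, Rps2, Rps27 and Rps29. In hepatocytes they were Rpl23a, Rpl24, Rpl30, Rpl37, Rps2 and Rps29, and in cardiomyocytes Rpl23, Rpl29, Rpl34 and Rps6. Rpl24, Rps2 and Rps29 had a peak in cardiomyocytes alone.

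Of the 54 members with a peak in the other 3 cell types, 41 had a peak in stem cells (75.9%). The share was 94.9% over all coding autosomal genes (9561 of 10077) and 92.2% over the genes of mitochondrial ribosomal proteins (59 of 64). The same share was 93.2% of members against 96.2% of coding genes in germ cells, 95.3% against 86.8% in hepatocytes and 91.1% against 93.1% in cardiomyocytes. No member without a peak had one within 1 kb of its RefSeq start either. The tables list only the peaks that the authors kept, so a member without a listed peak is not shown to lack the mark. Reads outside the listed peaks were not analysed here.

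Where it was listed, the stem cell peak at a ribosomal protein gene was broad. The median width was 9.53 kb over members, compared with 3.27 kb over all promoter peaks of stem cells, of which 93.2% were narrower than the member median. Member peaks were 4.72 to 19.4 kb wide in stem cells. Peaks of some related genes were as broad there. Median widths were 11.045 kb for translation factors (17 genes) and 10.529 kb for ribosomal proteins with other names (4 genes). Medians were lower for X-linked ribosomal protein genes (8.191 kb) and ribosome biogenesis genes (6.948 kb). Paralogues of ribosomal proteins had 4.724 kb and mitochondrial ribosomal proteins 4.503 kb. Breadth in stem cells was thus not particular to members. In germ cells the medians were 3.36 kb for members and 2.74 kb for promoters, in hepatocytes 7.22 and 5.69 kb, and in cardiomyocytes 5.15 and 4.13 kb. The ranges of the members were 2.02 to 6.08 kb in germ cells, 3.56 to 24.99 kb in hepatocytes and 2.62 to 22.6 kb in cardiomyocytes. Many of these peaks also lay within 1 kb of the TSS of another gene, 39 of 62 in germ cells, 38 of 50 in stem cells, 45 of 63 in hepatocytes and 46 of 64 in cardiomyocytes, so their reads cannot be assigned to the ribosomal protein gene alone.

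The added width lay mainly downstream. In stem cells the peak reached a median of 6922 bases downstream of the start, which is past the end of most members. The median was 2344 bases over all genes and 2427 bases over genes of like length (2047 to 6668 bases, the 10th to 90th percentile of members). Upstream the peak reached 2255 bases at members and 1418 bases at all genes. The peak covered the whole gene body at 45 of 50 members in stem cells (90%), compared with 23.9% of genes of like length. The corresponding shares were 69.8% and 39.9% in hepatocytes, 50.8% and 37.0% in cardiomyocytes, and 3.28% and 8.71% in germ cells. The share of members was above that of genes of like length in the first 3 of these and below it in germ cells. Members of any length were counted, while the comparison genes were restricted in length and had their start inside the peak. In germ cells the 2 members covered whole, Rpl41 (1192 bases) and Rps21 (1069 bases), were shorter than that range. The broadest and narrowest member peaks were Rpl35 (6082 bases) and Rpl29 (2021) in germ cells, Rpl7a (24989) and Rps26 (3557) in hepatocytes, and Rpl18 (22645) and Rps23 (2624) in cardiomyocytes. In stem cells the narrowest peaks were at Rps14 (4724) and Rpl27 (5484).

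**Figure D1:**
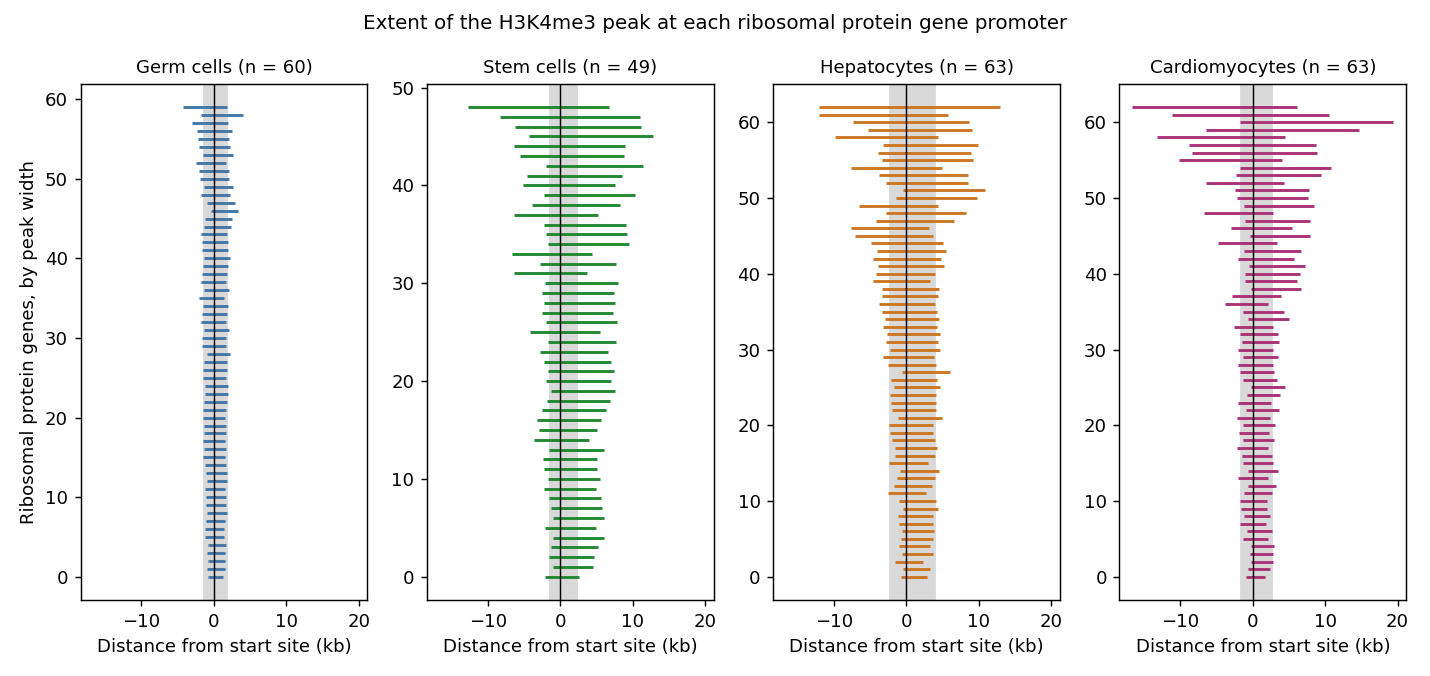
Each horizontal line is the peak at 1 ribosomal protein gene that contains its start site, drawn from its upstream to its downstream edge in kb from the start (0, vertical line), sorted by width, in 4 panels for the cell types. Grey bands span the median upstream and downstream reach over all genes; in stem cells most lines run far past the band on the downstream side, with a member median of 6922 bases.

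Levels of H3K4me3 at ribosomal protein genes were in the upper part of the range of promoters, most of all in stem cells and germ cells. The median level of members was 10.9 CPM per kb in stem cells, at a median percentile of 94.9 among promoter peaks of that table, and 21.8 CPM per kb in germ cells, at percentile 87.1. In hepatocytes it was 11.97 CPM per kb (percentile 68.5) and in cardiomyocytes 12.2 (percentile 68.8). Promoter medians were 6.41, 9.38, 10.1 and 10.8 CPM per kb in stem cells, germ cells, hepatocytes and cardiomyocytes. In the same order the ranks were taken among 18468, 19447, 12616 and 12920 promoter peaks. Median percentiles of mitochondrial ribosomal proteins were 86.7, 87.1, 73.4 and 66.5, and those of ribosome biogenesis genes 87.4, 86.9, 69.4 and 71.4. Translation factors had 85.8, 82.7, 71.2 and 69.4, and X-linked ribosomal protein genes 75.7, 60.2, 73.2 and 39.4. In stem cells 34 of the 50 members were in the top 10% of promoter peaks, in germ cells 18 of 61, in hepatocytes 7 of 63 and in cardiomyocytes 9 of 65. Large and small subunit genes had median percentiles of 96.2 and 94.5 in stem cells, 86.6 and 88.2 in germ cells, 75.8 and 67.3 in hepatocytes, and 68.3 and 71.5 in cardiomyocytes.

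The highest levels in germ cells were at Rpl4 (37.9 CPM per kb), a protein of the large subunit whose loop lines the exit tunnel, Rps25 (36.7) and Rpl29 (30.3). The lowest there were at Rps14 (9.62), Rpl10a (11.6) and Rpl17 (13.4). In stem cells Rps12 (14.5), Rpl4 (14.4) and Rps27a (14.1), which encodes a fusion of ubiquitin to a small subunit protein, were highest, and Rps14 (5.18) and Rps15 (7.20) lowest. Hepatocytes had their highest levels at Rpl41 (20.02), which encodes the smallest ribosomal protein, Rpl18 (18.2) and Rps12 (17.1), and their lowest at Rps14 (7.92), Rps10 (8.70) and Rpl37a (8.80). In cardiomyocytes Rpl18 (16.1) and Rpl15 (15.02) were among the highest, and the lowest were Rps24 (7.67), Rpl6 (8.54) and Rpl11 (8.82). Rpl4 was thus near the top in the 2 tables with a high member rank, and Rpl18 in the 2 adult tissues.

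Rps14, which encodes a small subunit protein close to the decoding site, was lowest in 3 cell types at the start used here. Its level was read at the main TSS of the annotation, the most upstream start of its principal transcripts, which lies 27.4 kb before the RefSeq start. At the peak over the RefSeq start its level was 24.7 CPM per kb in germ cells (percentile 92.9, compared with 50.9 at the upstream start). It was 11.4 in stem cells (percentile 97.0, compared with 36.0), 14.9 in hepatocytes (percentile 89.2, compared with 32.7) and 10.6 in cardiomyocytes (percentile 48.4), where no peak was listed at the upstream start.

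**Figure D2:**
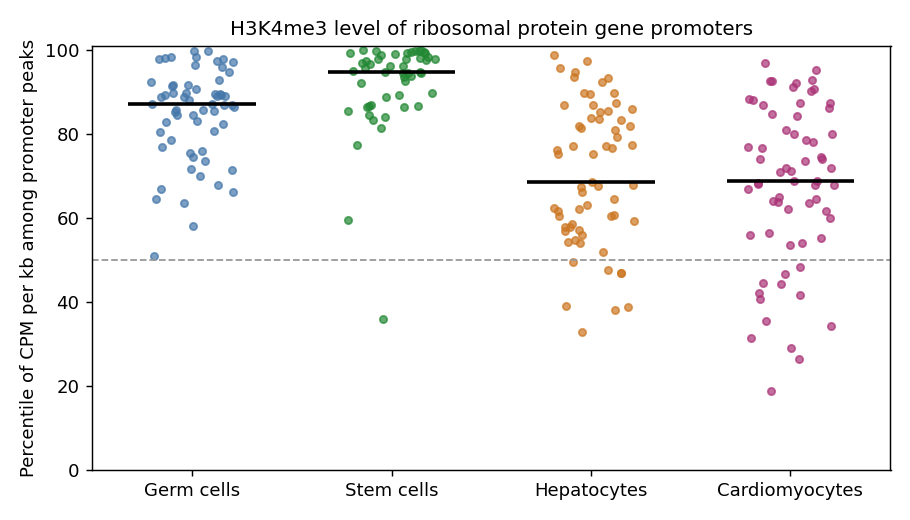
Each point is 1 ribosomal protein gene, the y axis is the percentile of its H3K4me3 level (CPM per kb, mean of the B6 and D2 group means) among all promoter peaks of the same cell type, and black lines are medians. The medians are 94.9 in stem cells, 87.1 in germ cells, 68.8 in cardiomyocytes and 68.5 in hepatocytes, and the dashed line is the promoter median.

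Between the founders 1 to 7 ribosomal protein promoters per cell type were called. With edgeR's quasi-likelihood test and Benjamini-Hochberg adjustment over all peaks, called at an adjusted p under 0.05, 2 of 62 member peaks were called in germ cells (9.25% of promoter peaks), 1 of 63 in hepatocytes (9.22%), 3 of 50 in stem cells (17.3%) and 7 of 64 in cardiomyocytes (8.51%). As shares of the members these are 3.23%, 1.59%, 6% and 10.9%, below that of promoter peaks in all but cardiomyocytes, a difference that was not tested. With loess-trended scaling the germ cell count was 5 and the hepatocyte count 2. The median absolute log2 difference between B6 and D2 was 0.07 for members and 0.15 for promoter peaks in germ cells, 0.07 and 0.15 in stem cells, 0.08 and 0.09 in hepatocytes, and 0.13 and 0.20 in cardiomyocytes. Of the 13 calls 12 were higher in B6. Rpl23 was called in each of the 3 cell types in which it had a peak and is counted in each. Among called promoter peaks, 796 of 1798 were higher in B6 in germ cells and 582 of 1163 in hepatocytes. In stem cells these were 1556 of 3193 and in cardiomyocytes 702 of 1099. As shares of all promoter peaks, those called higher in B6 were 4.09% in germ cells, 4.61% in hepatocytes, 8.43% in stem cells and 5.43% in cardiomyocytes.

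Rpl23 encodes a large subunit protein that can also bind the p53 regulator Mdm2. Its germ cell peak lies at chr11:97779962-97783709 (mm10, as the deposited table gives it), over the start of the gene and 2475 bases downstream of it. The 3 B6 germ cell libraries had 59.5, 82.4 and 77.4 CPM, the D2 libraries 39.97, 35.8 and 34.0, and the F1 libraries 70.2, 83.5, 78.6 and 79.4. B6 and D2 did not overlap, and the F1 libraries lay in or just above the range of B6. The log2 difference of B6 minus D2 was 1.00 (SE 0.14, adjusted p = 2.29e-06). In hepatocytes the B6 libraries had 91.1, 91.8 and 92.3 CPM and the D2 libraries 59.6, 59.5 and 65.0, a log2 difference of 0.58 (SE 0.12, adjusted p = 0.00205). In stem cells the B6 lines had 148, 158 and 147 CPM and the D2 lines 98.1, 118 and 131, a log2 difference of 0.38 (SE 0.11, adjusted p = 0.00838). B6 was above D2 without overlap in all of these. Here and below, called members were picked by their difference in the same libraries, so a lack of overlap adds no support. The share of all promoter peaks without overlap was not counted. Rpl23 stayed called when any library was left out and under the other scalings, filters and tools (17 settings in germ cells, 19 in hepatocytes and 23 in stem cells), apart from the restriction on interval width given below.

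Rpl7a, a large subunit protein that also hosts small nucleolar RNAs in its introns, was the other germ cell call. The B6 libraries had 56.0, 93.7 and 91.8 CPM, the D2 libraries 42.8, 48.6 and 35.7, and the F1 libraries 80.4, 87.7, 80.4 and 70.2. The groups of B6 and D2 did not overlap, and the log2 difference was 0.92 (SE 0.19, adjusted p = 0.000653). The peak, at chr2:26909224-26912739, also lies at the start of Med22. Leaving out a B6 library moved the germ cell count by over 1.5 times, to 4 without the library B62.

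F1 germ cells were compared with the midpoint of B6 and D2 in log2, and 1 of 62 member peaks was called (1.04% of promoter peaks), a higher one (0.813%). It was Rpl23, higher by 0.59 (SE 0.11, adjusted p = 0.000897), with the library values given above. Rpl7a had the next largest difference, 0.44 (SE 0.15, adjusted p = 0.189), which missed the threshold. The median absolute log2 difference of F1 from the mean of its parents was 0.04 for members and 0.08 for promoter peaks.

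In stem cells the other calls were Rps15a and Rpl21. Rps15a had 180, 195 and 185 CPM in the B6 lines and 117, 133 and 178 in the D2 lines (log2 difference 0.39, SE 0.13, adjusted p = 0.0244). Rpl21 had 96.7, 103 and 98.9 CPM in B6 and 62.2, 73.0 and 92.3 in D2 (0.40, SE 0.13, adjusted p = 0.0285). Each missed the threshold in 4 of 23 other settings. In both genes the D2 line 216 lay close to the B6 lines and the other D2 lines were well below. The count of 3 calls fell to 1 without B6 line 146, B6 line 49 or D2 line 203, was 2 without D2 line 173 and 4 without D2 line 216.

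Cardiomyocytes had 6 member peaks higher in B6 and 1 lower (3.07% of promoter peaks). Rpl11, a large subunit protein that binds Mdm2 together with other free ribosomal proteins, had 46.4, 52.7 and 41.3 CPM in B6 and 21.4, 23.9 and 32.9 in D2 (log2 difference 0.87, SE 0.19, adjusted p = 0.0157). Rpl6 had 32.1, 36.5 and 28.2 CPM in B6 and 21.1, 19.8 and 18.1 in D2 (0.70, SE 0.16, adjusted p = 0.0197). Rps26, which contacts messenger RNA on the small subunit, had 39.9, 34.3 and 38.2 CPM in B6 and 19.5, 22.2 and 31.4 in D2 (0.64, SE 0.17, adjusted p = 0.0413). The groups did not overlap in any of the 3 genes, which adds no support, since they were picked by their difference in these libraries. All 3 were among the lower member peaks of this tissue.

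The other calls in cardiomyocytes were at broad peaks, of 10168 to 21144 bases, whose CPM over the whole peak was high. Per kb Rps2 (percentile 40.7) and Rpl36 (9.47 CPM per kb, percentile 35.3) were below the promoter median, and Rpl8 (percentile 56.4) and Rps18 (percentile 74.0) above it. Rps2, a small subunit protein near the path of the messenger, had 253, 234 and 251 CPM in B6 and 188, 169 and 175 in D2 (log2 difference 0.47, SE 0.08, adjusted p = 0.00444). Its peak also reaches the starts of Rpl3l, the muscle paralogue of Rpl3, and of Msrb1, Ndufb10 and Rnf151. Rpl36 had 150, 162 and 140 CPM in B6 and 115, 114 and 126 in D2 (0.35, SE 0.08, adjusted p = 0.0232). Rpl8, which lies near the peptidyl transferase centre, had 139, 130 and 134 CPM in B6 and 107, 105 and 116 in D2 (0.30, SE 0.08, adjusted p = 0.0443). Rps18 was the gene lower in B6, with 116, 122 and 100 CPM compared with 146, 144 and 145 in D2 (-0.36, SE 0.09, adjusted p = 0.0298). Again the groups did not overlap, at members that were picked by this difference. With scaling to total reads in peaks 4 members were higher and 3 lower, and with the loess-trended scaling 5 and 4. The cardiomyocyte count was 1 without B6 replicate 1, D2 replicate 1 or D2 replicate 2, and 4 without B6 replicate 3, D2 replicate 3, BXD75 replicate 3 or BXD87 replicate 1. It was 11 without B6 replicate 2 and 12 without BXD75 replicate 1. Rps2 was called under each of the 19 settings and omissions tried, while Rpl8 missed the threshold in 12 of 19, Rps18 in 9, Rps26 in 8, Rpl36 in 5, Rpl6 in 4 and Rpl11 in 3.

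The width of the interval on the second genome moved with several of these differences. The deposited lists give most peaks an interval on mm10 and an interval on another genome, which neither the labels nor the headers name. In germ cells the interval of Rpl7a was 3.52 kb on mm10 and 2.00 kb on the second genome, a ratio of 0.568, and that of Rpl23 was 3.75 and 2.31 kb, a ratio of 0.616. In cardiomyocytes the ratio was 0.418 for Rpl11, 0.497 for Rpl6, 0.766 for Rps26, 0.792 for Rpl36, 0.821 for Rpl8, 0.911 for Rps2 and 1.06 for Rps18. Here the order of the ratios was nearly that of the log2 differences. The reverse held for Rpl23 in stem cells (1.71) and hepatocytes (1.90), where the second interval was the longer, and Rps15a (1.01) and Rpl21 (1.15) in stem cells had intervals of like width.

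Over all promoter peaks listed on both genomes, peaks with a ratio under 0.8 were called between the founders in 50.8% of cases in cardiomyocytes (412 of 811, of which 411 were higher in B6), compared with 5.06% of peaks of like width (ratio 0.8 to 1.25). The shares were 25.3% and 6.07% in germ cells, 47.1% and 13.3% in stem cells, and 44.3% and 7.27% in hepatocytes. Peaks with a ratio above 1.25, as at Rpl23 in stem cells and hepatocytes, were called in 22 of 53 cases in germ cells (41.5%), 57 of 219 in stem cells (26.0%), 39 of 233 in hepatocytes (16.7%) and 2 of 12 in cardiomyocytes (16.7%). Over member peaks Pearson's r of the log2 width ratio with the log2 difference was -0.71 in germ cells (62 peaks), -0.68 in cardiomyocytes (54), 0.45 in stem cells (50) and 0.41 in hepatocytes (63), where the peaks of a table share their libraries. Over promoter peaks it was -0.19, -0.60, -0.20 and -0.19. With peaks of unlike width left out, the members called were 0 in germ cells, 0 in hepatocytes, 2 in stem cells and 3 in cardiomyocytes. The part of the interval width in these differences was not tested.

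**Figure D3:**
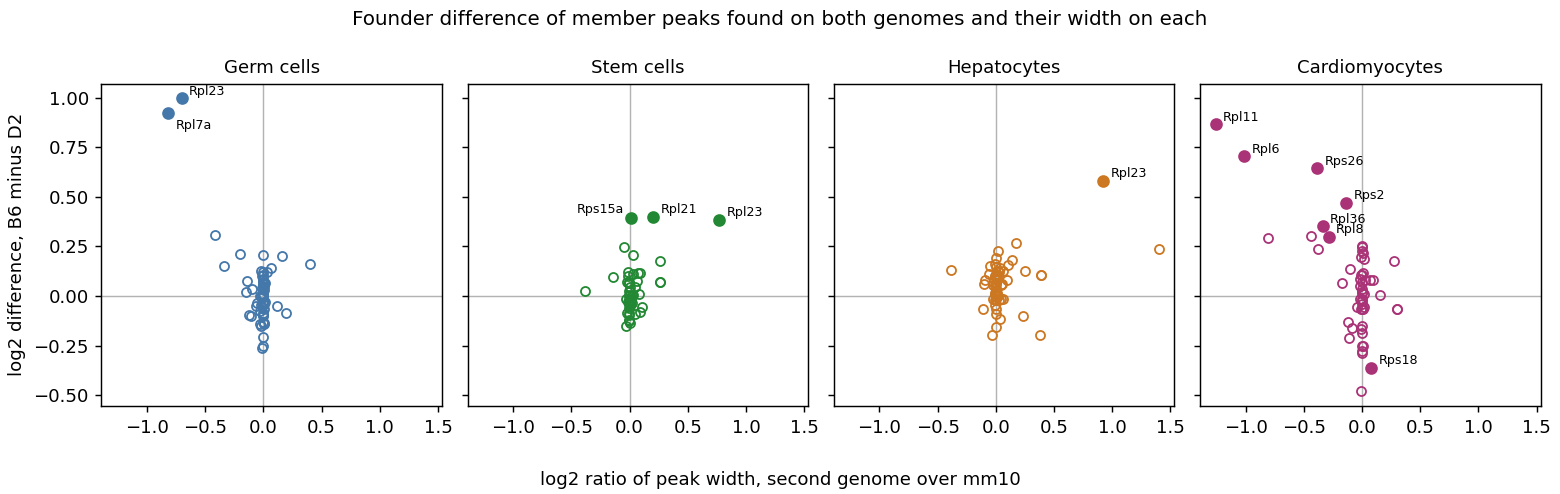
Each point is 1 member peak found on both genomes, the x axis is the log2 ratio of its interval width on the second genome to that on mm10, the y axis the log2 difference of B6 minus D2, and filled, named points passed an adjusted p of 0.05. In germ cells and cardiomyocytes the largest differences sit at the shortest second intervals, while Rpl23 in stem cells and hepatocytes lies at a longer one.

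Between the recombinant inbred strains BXD75 and BXD87 no member peak was called in hepatocytes (0 of 63, 2.33% of promoter peaks), cardiomyocytes (0 of 64, 0.433%) or stem cells (0 of 50, 14.5%). The numbers at an unadjusted p under 0.05 were 1, 4 and 1, and DESeq2 also called 0 in each. Loess-trended scaling called 1 in hepatocytes and 2 in stem cells, and scaling to total reads in peaks 1 in stem cells. The largest differences of BXD75 minus BXD87 were Rpl11 (0.42, SE 0.17) in cardiomyocytes, Rpl21 (0.25, SE 0.12) and Rps15a (0.24, SE 0.12) in hepatocytes, and Rps15a (0.22, SE 0.10) and Rps14 (0.18, SE 0.10) in stem cells. The hepatocyte count was 2 without BXD87 replicate 1, and the stem cell count 1 without BXD87 line I or D2 line 216. The median absolute difference of members was 0.10 in cardiomyocytes, 0.05 in stem cells and 0.05 in hepatocytes, compared with 0.17, 0.13 and 0.08 for promoter peaks.

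The BXD strains inherit each locus from B6 or D2, so their levels were set beside the founders. For all 7 founder calls in cardiomyocytes the means of both BXD75 and BXD87 lay nearer to B6 than to D2. At Rpl11, for example, BXD75 had 64.2, 44.3 and 51.1 CPM and BXD87 37.8, 46.0 and 35.5, all above D2. Over all founder calls at cardiomyocyte promoters both strains were nearer to B6 in 97.8% of peaks with a shorter second interval and in 89.3% of peaks of like width. In stem cells 2 of 3 member calls had both strains nearer to B6, and in hepatocytes 0 of 1. For the same 2 classes of called promoter peaks the shares were 58.3% and 24.5% in stem cells, and 44.2% and 38.3% in hepatocytes. Rpl23 has a longer second interval in both cell types and is in neither class.

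For Rpl23 and Rpl7a the share of a promoter in the summed CPM of all member peaks of a library removes what all ribosomal protein promoters have in common. In germ cells Rpl23 held 1.52 to 1.67% of the member CPM in B6, 1.56 to 1.81% in F1 and 1.36 to 1.79% over the 69 BXD libraries, compared with 0.732 to 0.877% in D2. Every BXD library was therefore above every D2 library. Rpl7a gave 1.58 to 1.801% in B6, 1.599 to 1.79% in F1, 1.45 to 1.94% in BXD libraries and 0.767 to 1.06% in D2. The founder and F1 germ cell libraries are all of antibody lot 2557645, and 33 of the 69 BXD libraries are of that lot. Within this lot, all member peaks together held a mean of 0.43% of the reads in peaks in B6, 0.41% in D2 and 0.42% in F1. In the BXD libraries of the lot the mean was 0.34%. Founders and F1 thus differed from the panel as a set, and the part of this in the shares was not tested. Of the 62 member peaks Rpl23 and Rpl7a were the only ones with all 3 D2 libraries below every BXD library, whether all 69 or the 33 of the same lot were taken. Rpl4 was the only one with all of them above, with either set of BXD libraries. It held 4.07 to 4.46% in D2, 3.24 to 4.05% in B6 and 3.69 to 4.37% in F1, compared with 2.50 to 3.78% in BXD libraries of lot 2557645 and 2.07 to 3.32% in those of lot 2746331. B6 and F1 had no member peak wholly outside the range of the BXD libraries, again with either set. The same count was not made over all promoter peaks, so how common such peaks are among other promoters is not known.

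The same held for Rpl23 in the other cell types. In stem cells its share was 2.70 to 2.71% in B6, 2.68 to 2.90% in BXD75, 2.67 to 2.83% in BXD87 and 2.01 to 2.34% in D2. In hepatocytes it was 1.37 to 1.42% in B6, 1.24 to 1.36% in BXD75, 1.18 to 1.36% in BXD87 and 0.898 to 1.08% in D2. In CPM the hepatocyte strains read otherwise, since BXD75 (73.1, 58.7 and 56.5) and BXD87 (72.3, 56.3 and 52.2) lay near D2. All member peaks together held 0.616% ± 0.009 (SD, n = 3) of the reads in peaks in B6 hepatocytes and 0.514% ± 0.039 (SD, n = 3) in BXD75. The D2 shares of Rpl23 thus lay below all other libraries in each of the 3 cell types.

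**Figure D4:**
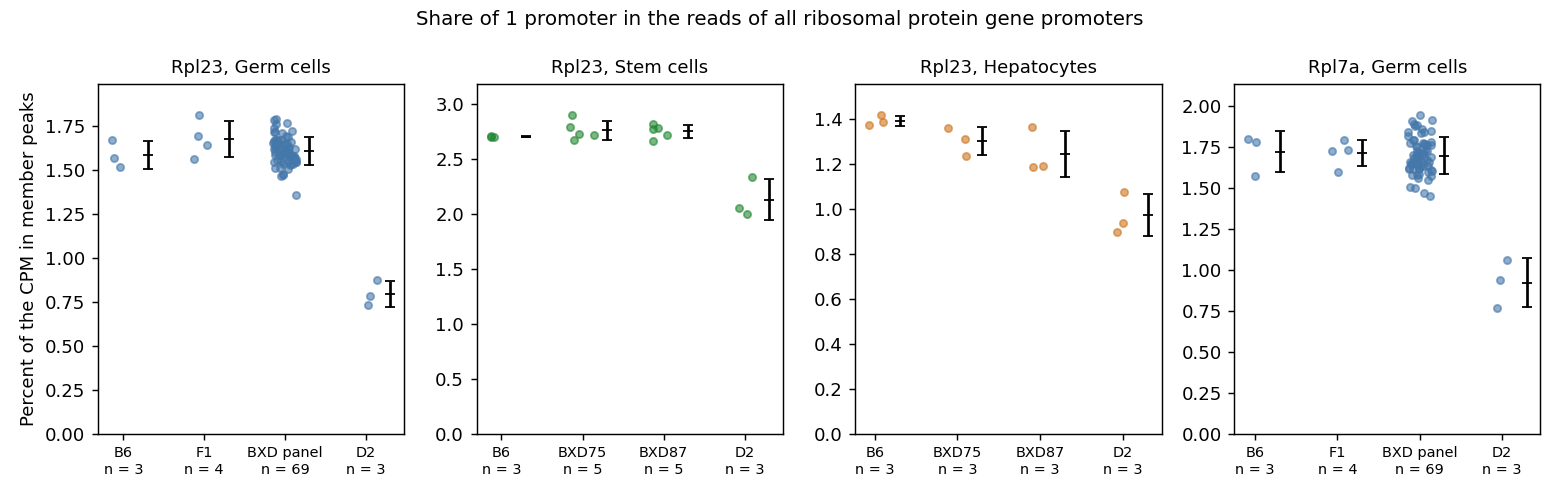
Points are libraries (stem cells: lines), the y axis is the percent of the summed CPM of all member peaks held by Rpl23 in germ cells, stem cells and hepatocytes and by Rpl7a in germ cells, and black marks with bars are means ± SD. D2 lies below every other group in each panel, in germ cells at 0.732 to 0.877% for Rpl23 against at least 1.36% elsewhere.

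Whether the founder difference depended on cell type was tested on peaks matched across the 4 tables. At 50% reciprocal overlap 590 of 3789 matched peaks were called (15.6%), and Rpl41 was the 1 member among them that could be tested, with an adjusted p of 0.0805. Of the 26 members matched at any overlap 2 were called (17.8% of 8388 peaks), Rpl21 (adjusted p = 0.00916) and Rpl11 (adjusted p = 0.00959). For Rpl11 the differences of B6 minus D2 were 0.87 in cardiomyocytes, 0.31 in germ cells, 0.27 in hepatocytes and 0.21 in stem cells. For Rpl21 they were 0.40 in stem cells, 0.40 in cardiomyocytes (adjusted p = 0.0579, not called), 0.10 in germ cells and -0.10 in hepatocytes. Rpl23 has no cardiomyocyte peak and was not matched, so the dependence of its difference on cell type was not tested.

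In the BXD germ cell panel the strains were processed with 2 antibody lots, and each strain has libraries of only 1 lot except BXD99, which was left out. Lot and strain cannot be told apart here. Between the 28 strains of lot 2557645 and the 32 of lot 2746331, 45 of 62 member peaks were called (59.5% of promoter peaks), 44 higher (31.9%) and 1 lower (27.7%) with lot 2557645. The median log2 difference was 0.14 for members and -0.01 for promoter peaks. Most related gene lists had a like shift. Their medians were 0.15 for ribosome biogenesis genes, 0.17 for translation factors, 0.18 for mitochondrial ribosomal proteins and 0.23 for paralogues of ribosomal proteins. For ribosomal proteins with other names the median was 0.13, and for X-linked ribosomal protein genes 0.03. Rpl4 differed most, with 104 ± 14.5 CPM (SD, n = 28) compared with 78.7 ± 11.01 (SD, n = 32), a log2 difference of 0.42 (SE 0.05, adjusted p = 1.15e-08). Rps26 (0.32) and Rps27a (0.28) followed. The lower peak was that at the upstream start of Rps14 (-0.15), while the peak at its RefSeq start was higher by 0.19. With scaling trended on level (loess) 34 were higher and 8 lower, and with scaling to total reads in peaks 35 and 4.

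**Figure D5:**
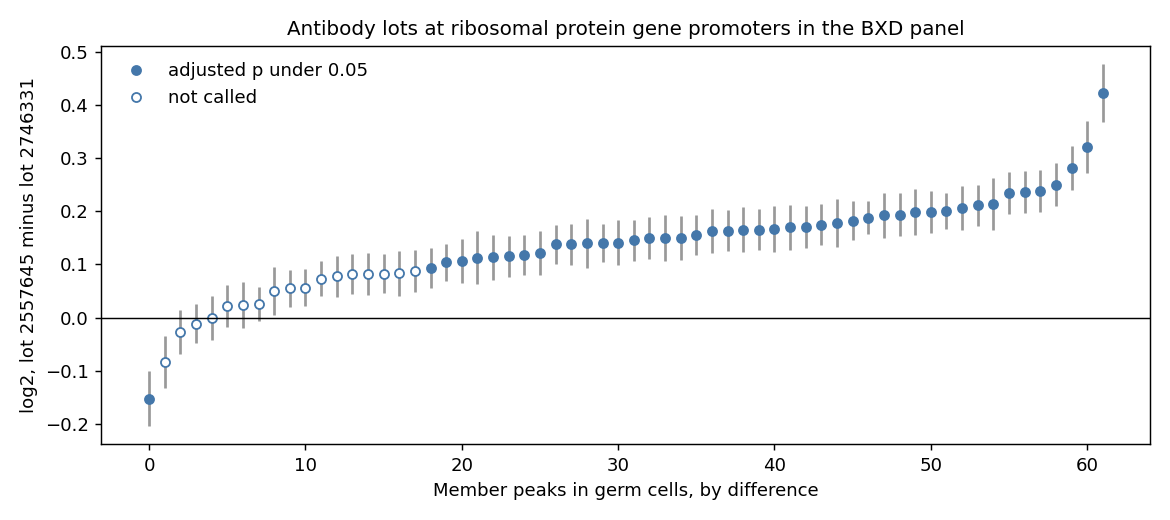
Each point is 1 member peak in germ cells, sorted along the x axis by its difference, the y axis is the log2 difference of strains of lot 2557645 minus strains of lot 2746331, bars are the standard error, and filled points passed an adjusted p of 0.05. Most points lie above 0, from -0.15 for the upstream start of Rps14 to 0.42 for Rpl4.

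Across the 61 BXD strains ribosomal protein promoters varied about as much as other promoters of like level. After lot means were subtracted from log2 CPM, the SD across strains had a median of 0.155 over members (10th to 90th percentile 0.135 to 0.183), 0.150 over promoter peaks of like level and 0.187 over all promoter peaks. The SD between repeat libraries of the same strain, from 7 strains with 15 libraries, had a median of 0.201 over members. The spread over strain means was thus no larger than that between repeats. Some of these repeats were shallow, down to 1.87 M in BXD84 and 2.23 M in BXD56, and the part of depth was not tested. The largest SD was at Rpl10a (0.22), Rps14 (0.21) and Rps18 (0.20), and the smallest at Rps20 (0.12), Rpl37a (0.13) and Rpl38 (0.13). Member promoters went up and down together over the strains, with a median Pearson's r of 0.77 over 1830 pairs, compared with 0.63 over pairs of promoter peaks of like level. All pairs share the same libraries and their depth and efficiency. With the loess-trended scaling the medians were 0.26 and 0.03, and the SD of members was 0.089, compared with 0.095 at like level.

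Other genes of the translation machinery, from lists of the same pathway, were also compared between the founders, where 8.51 to 17.3% of promoter peaks were called, depending on the cell type. Summed over the 4 cell types, 0 of 18 tests were called for ribosomal proteins with other names (Rpsa, Rplp0 and the like) and 0 of 15 for the X-linked ribosomal protein genes Rpl10, Rpl36a, Rpl39 and Rps4x. Of 76 tests of translation factors 2 were called, both lower in B6 at Eef2, the elongation factor that moves the ribosome along the messenger (-0.92, SE 0.09 in cardiomyocytes and -0.40, SE 0.12 in stem cells). Of 287 tests of mitochondrial ribosomal proteins 3 were higher and 3 lower in B6, the largest at Mrpl30 (1.14, SE 0.13) in cardiomyocytes. Of 139 tests of ribosome biogenesis genes 1 was higher, Rrs1 (1.31, SE 0.14), and 1 lower, Grwd1 (-0.58, SE 0.16), both in cardiomyocytes.

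The paralogues of ribosomal proteins gave 4 calls in 21 tests, against the same 8.51 to 17.3% of promoter peaks. Rpl10l, a testis form of the X-linked Rpl10, was lower in B6 germ cells (-0.44, SE 0.15), as was Rpl3l (-0.57, SE 0.19). Rpl39l was lower in B6 stem cells (-0.60, SE 0.13) and higher in BXD75 than in BXD87 (0.66, SE 0.10). The remaining call, Rpl3l higher in B6 cardiomyocytes, is the peak already counted for Rps2.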

How the data were processed

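The values come from 4 tables of counts deposited by the authors, whole-number reads per peak with a column for each H3K4me3 library and no normalisation. Peak intervals (unit: other, coordinates) were taken from the deposited association lists, on mm10 and on another genome that is not named. CASAVA 1.8, BWA 0.5.10, MACS 1.4.2 and mm10 are named, with no role or order, per the submitters' processing notes, and the rule by which reads were counted was not stated. The members, the gene lists and the tests were chosen with earlier results of these data known.

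Peaks within 1 kb of a GENCODE M21 basic start site were promoter peaks. A member's level, width and reach were read at the peak nearest its main start, the most upstream start of an APPRIS-principal transcript. Counts of all peaks of a table were fitted together with edgeR 4.0.16 under R 4.3.3 (filterByExpr by strain, TMM, glmQLFit with robust estimation, quasi-likelihood F test), adjusted over all peaks by Benjamini-Hochberg and called at an adjusted p under 0.05. DESeq2 1.42.0 was an alternative. Peaks were matched between cell types with bedtools 2.31.1. Sequences came from RefSeq (GRCm38.p6). The fit was tested on simulated data. Libraries of stem cell line 49 of B6 agreed within sampling noise (chi-square per peak of 0.818 for the closest pair) and were summed with those of their line, as were those of D2 line 203. Of libraries labelled as different lines, BXD75 N and Y were closest (1.14).

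Named members were those called in a comparison, those with the largest 2 differences of each, the 3 highest and lowest levels, the 2 broadest and narrowest peaks, members with no peak, the 3 most and least variable in the panel, and called genes of the related lists. Some members that this rule names are not reported here. Peaks with an interval of like width on both genomes (ratio 0.8 to 1.25) were an alternative added after the data were seen. B6 germ cell libraries are headed B62, B63 and B64 in the table, which the labels do not explain. Same-numbered libraries deviated together (correlation over 0.1) in 5 of 18 pairs in hepatocytes and 8 of 18 in cardiomyocytes, so number was no block.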

Additional observations from a re-analysis of the deposited data

Results flagged for a closer look

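In stem cells of BXD75 and BXD87 and in the F1 germ cells the promoters of the called members were checked for a library far from the rest of its group, and 3 of 8 groups had one, where chance gives about 1 in 20. All 3 were BXD87 line I, the highest of the 5 lines of its strain, with 170 CPM at Rpl23 (the others 138 to 145), 180 CPM at Rps15a (the others 135 to 144) and 111 CPM at Rpl21 (the others 82.2 to 86.2). These are 3 peaks of the same library. Without line I, 1 member was called between BXD75 and BXD87 in stem cells.

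When peaks were matched at any overlap, the founder difference depended on cell type at 2 of 26 members, compared with 17.8% of the 8388 matched peaks. The members were Rpl21 (adjusted p = 0.00916) and Rpl11 (adjusted p = 0.00959), with edgeR's quasi-likelihood F test. The differences of B6 minus D2 at Rpl21 were 0.40 in stem cells, 0.40 in cardiomyocytes, 0.10 in germ cells and -0.10 in hepatocytes. At Rpl11 they were 0.87 in cardiomyocytes, 0.31 in germ cells, 0.27 in hepatocytes and 0.21 in stem cells. Neither gene was among the peaks matched at 50% reciprocal overlap, and intervals matched at any overlap can cover different lengths of a gene in each cell type. Their part in the difference was not tested.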

How the results depend on the processing

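No result changed direction. The count of member peaks called between B6 and D2 in cardiomyocytes was 7, and was 3 with the replicate block and 3 with peaks of like width only. In germ cells it was 2, and was 5 with loess-trended scaling and 0 with peaks of like width. In hepatocytes it was 1, with 2 and 0 under the same settings, and in stem cells 3, with 5 when every library was a replicate. F1 against its parents gave 1, with 2 under scaling to total reads and 3 under loess. BXD75 against BXD87 gave 0 in each cell type, with 1 in hepatocytes under loess and, in stem cells, 1 under total reads and 2 under loess. The dependence on cell type gave 0, and 2 at any overlap. The median percentile of level was 82.5 in germ cells with CPM of the whole peak (87.1 per kb), and 75.3 in hepatocytes with the highest-level peak (68.5 with the nearest). The panel SD was 0.0892 under loess (0.155).

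Leaving out a library or line moved the founder count over 1 to 12 in cardiomyocytes, 2 to 4 in germ cells, 1 to 1 in hepatocytes and 1 to 4 in stem cells, and the BXD75 against BXD87 count over 0 to 2 in hepatocytes, 0 to 0 in cardiomyocytes and 0 to 1 in stem cells. F1 stayed at 1. The replicate block left the hepatocyte counts at 1 and 0. Correlations of same-numbered libraries ran from -0.283 to 0.621 in hepatocytes and -0.737 to 0.656 in cardiomyocytes. The labels do not say what samples of the same number share, so number was no block in the main fits. The block could not be used in germ cells, whose B6 columns carry no label numbers, or with stem cell lines.

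Depth was lowest in the D2 cardiomyocyte libraries, the shallowest of that cell type. Levels between cell types differ in kit, peak set and lot and were not tested, and missing peaks are limited to what the authors listed.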
